A study of Mus musculus with 8 samples.

Results

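The loss of MAFbx in infarcted hearts was examined by setting 2 arrays of KO hearts against 2 arrays of wild-type (WT) hearts, all taken 1 day after the left coronary artery was tied off for good, which infarcts the heart wall (MI). The arrays were chosen by their genotype and condition labels, and they are 4 of the 8 arrays of the series; the other 4 are WT and KO hearts after a sham operation. The KO genotype is labelled MAFbxKO and carries a loss of the muscle atrophy F-box protein (MAFbx, also called atrogin-1), the product of Fbxo32. Titles of the WT arrays begin with LM, which the labels do not explain. Strain, age, sex, the deleted part of the gene, the region of the heart that was sampled and the time after a sham operation are not given in the labels. RNA came from heart tissue and was read on the Affymetrix Mouse Gene ST array, and 19938 genes were compared, each by 1 probe; where a gene had several, the probe that was brightest on average was taken. Values are log2 RMA levels, so a difference of 1 is a 2-fold difference. The 10th percentile of gene levels was 3.032 and the median 5.78.

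MAFbx is the substrate-binding part of an SCF ubiquitin ligase, in which Skp1 and Cul1 hold an F-box protein against the enzyme that attaches ubiquitin, and it marks muscle proteins for the proteasome. It is known for its rise in wasting muscle, and in the heart for restraint of calcineurin-driven growth. On the first day after a coronary artery is closed, dying heart muscle releases signals that start NF-kB and cytokine transcription, neutrophils enter first and monocytes follow, and their proteases begin to digest matrix. Cardiac rupture is the stated subject of the series, and rupture is the failure of that weakened wall.

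The WT MI and KO MI arrays separated from the sham arrays on the first principal component (73.9% of the variance), at 44.33 and 47.55 for WT MI, 31.36 and 32.51 for KO MI and between -40.14 and -36.36 for sham. WT MI replicate 2 and KO sham replicate 1 lay lowest on the second component (8.56% of the variance), at -20.20 and -21.22. They are the 2 arrays said below to stand apart. Their partner arrays lay at 0.63 and 15.29, so KO sham replicate 2 also lay away from WT sham (0.56 and 0.13). The KO MI arrays lay away from WT sham too, at 16.16 for replicate 1 and 8.64 for replicate 2. Where 1 array moved the median of a gene list far, its range over the fits that each left out 1 of the 8 arrays is given for most lists. Cardiomyocyte genes were among the highest of all, with Pln between 13.02 and 13.75 in the 8 arrays as the tissue label (heart) implies. Nothing in the labels says that replicates are different mice, so the p-values given here measure only how these samples scatter, possibly for technical reasons, and with 2 arrays a group the number of arrays limits precision.

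In infarcted hearts 14 genes differed between KO and WT at an adjusted p under 0.05 (0.0702% of the 19938 tested), of which 8 were lower in KO (0.0401%) and 6 higher (0.0301%). Apart from Fbxo32 the lower genes were Chil3, Sla, Jaml and Cd300lf, which leukocytes express, the lipase gene Lipg, the growth factor gene Pgf and the small nucleolar RNA Snora31. The higher genes were the slow myosin Myh7, the water channel Aqp8, the glycolytic regulator Pfkfb2, the synapse scaffold Rapsn, the epoxide hydrolase Ephx1 and the membrane-shaping protein Mtss1. Differences of these 14 ran from 1.98-fold for Mtss1 to 7.9-fold for Fbxo32, and 13 were at least 2-fold. At an unadjusted p under 0.05, 2337 genes (11.7%) differed, 1396 higher (7%) and 941 lower (4.72%) in KO. With cyclic loess normalization 30% of the called genes were higher in KO, against 42.9% in the deposited values.

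The calls were few, and their number changed with any 1 array left out. Leaving out a sham array does not change the KO MI minus WT MI differences. It changes only the spread that all groups share and lowers its 4 residual degrees of freedom. Leaving out an MI array changes the differences as well. With any 1 of the 8 arrays left out between 2 and 11 genes were called, and Fbxo32 was the 1 gene called in all 8 of these fits. Without WT MI replicate 2, which stood apart, 2 genes were called, and 1 of them was among the 14. Without WT MI replicate 1 there were 11 calls, with 3 of the 14 among them. Without KO MI replicate 1 or KO MI replicate 2 there were 3 calls each, and without either WT sham array also 3. Without KO sham replicate 1, the other array that stood apart, 8 were called, 7 of them among the 14, and without KO sham replicate 2 also 8. With every probe of the table tested in place of 1 per gene, 0 were called.

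**Figure D1:**
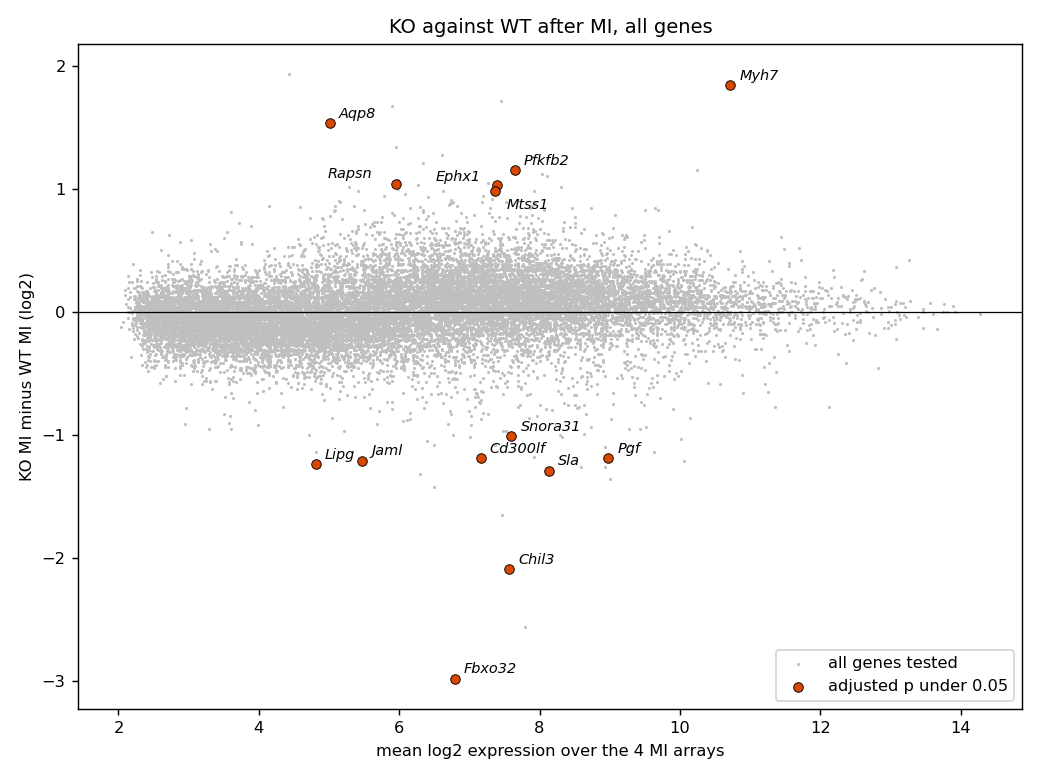
Difference between KO MI and WT MI (log2, vertical axis) against the mean log2 level over the 4 MI arrays (horizontal axis) for the 19938 genes tested, with the 14 genes at an adjusted p under 0.05 in red and named. Most genes lie within 0.5 of 0, Fbxo32 lies lowest at -2.98, and called genes span levels from the lower part of the array (Lipg) to its top (Myh7).

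Fbxo32 checks the genotype labels. It read 8.35 and 8.21 in WT MI and 5.14 and 5.46 in KO MI, beside 8.76 and 8.79 in WT sham and 4.68 and 5.17 in KO sham. Both KO MI arrays lay far below both WT MI arrays, as the labels of the 4 arrays state. Its level was 7.9-fold lower in KO after MI (log2 difference -2.98, SE 0.18, limma adjusted p = 0.00041, range over the alternatives 8.03e-05 to 0.0523, the highest with all probes tested). Of the 5 genes on either side of Fbxo32 in the RefSeq table, 0 of 10 passed the threshold. Zhx1, a zinc finger and homeobox gene, read 8.21 and 8.18 in WT MI and 8.32 and 8.36 in KO MI, and the differences of the 10 ran from -0.17 for Fam83a to 0.45 for Atad2. Mtss1, described further on, is the 10th gene after Fbxo32 with a value here.

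Chil3, the chitinase-like lectin Ym1 that myeloid cells secrete, fell the most after Fbxo32 among the called genes. It read 8.46 and 8.76 in WT MI and 6.33 and 6.71 in KO MI, against 3.30 and 2.51 in WT sham and 2.53 and 2.32 in KO sham. Both KO MI arrays lay between the sham arrays and the WT MI arrays, with no overlap. The level in KO MI was 4.26-fold lower (log2 difference -2.09, SE 0.24, adjusted p = 0.0248, range over the alternatives 0.00866 to 0.339), and it passed in 2 of the 8 fits that left out an array. Sla, the Src-like adaptor that damps receptor signalling in blood cells, read 8.75 and 8.83 in WT MI and 7.56 and 7.42 in KO MI, with sham arrays between 5.42 and 5.78. It was 2.45-fold lower (log2 difference -1.29, SE 0.14, adjusted p = 0.0238) and passed in 4 of the 8 fits that left out an array.

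Cd300lf encodes an inhibitory receptor of myeloid cells, and Jaml a junctional adhesion protein by which leukocytes cross epithelia. Cd300lf read 7.54 and 7.97 in WT MI and 6.52 and 6.60 in KO MI, with sham arrays between 3.93 and 4.27 (2.29-fold lower, log2 difference -1.19, SE 0.16, adjusted p = 0.0445). Jaml read 6.09 and 6.07 in WT MI and 4.62 and 5.10 in KO MI, with sham arrays between 3.51 and 3.75 (2.32-fold lower, log2 difference -1.21, SE 0.16, adjusted p = 0.0445). In both genes the KO MI arrays stood above the sham arrays and below the WT MI arrays. Cd300lf passed in 1 and Jaml in 0 of the 8 fits that left out an array.

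The start regions of Chil3, Cd300lf and Jaml are shown because these leukocyte genes were lower together, and that of Myh7 because it had the largest rise among the called genes. Each is 300 bases of the sense strand from RefSeq on GRCm38.p6, 250 before the transcription start and 50 from it on, with matches in capitals. Chil3 lies at chr3:106167515-106167814 on the minus strand, Cd300lf at chr11:115133943-115134242 on the minus strand, Jaml at chr9:45078933-45079232 on the plus strand, and the Myh7 window at chr14:54994577-54994876 on the minus strand.
Chil3: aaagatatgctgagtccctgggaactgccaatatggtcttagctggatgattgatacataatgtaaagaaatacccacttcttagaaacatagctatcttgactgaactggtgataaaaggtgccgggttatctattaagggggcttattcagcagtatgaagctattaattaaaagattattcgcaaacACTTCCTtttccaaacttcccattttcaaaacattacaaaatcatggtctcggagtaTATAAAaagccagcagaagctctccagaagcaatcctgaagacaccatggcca
Cd300lf: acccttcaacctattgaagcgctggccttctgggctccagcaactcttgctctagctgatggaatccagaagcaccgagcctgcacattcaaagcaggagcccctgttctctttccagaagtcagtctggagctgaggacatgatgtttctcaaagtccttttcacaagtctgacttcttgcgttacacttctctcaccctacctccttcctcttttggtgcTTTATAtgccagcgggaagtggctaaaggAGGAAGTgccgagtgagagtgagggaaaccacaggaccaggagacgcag
Jaml: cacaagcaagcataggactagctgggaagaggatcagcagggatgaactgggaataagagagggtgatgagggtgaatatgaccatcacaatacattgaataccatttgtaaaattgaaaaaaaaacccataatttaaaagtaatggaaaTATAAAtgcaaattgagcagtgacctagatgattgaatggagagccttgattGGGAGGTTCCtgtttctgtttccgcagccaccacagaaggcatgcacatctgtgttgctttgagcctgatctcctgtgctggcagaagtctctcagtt
Myh7: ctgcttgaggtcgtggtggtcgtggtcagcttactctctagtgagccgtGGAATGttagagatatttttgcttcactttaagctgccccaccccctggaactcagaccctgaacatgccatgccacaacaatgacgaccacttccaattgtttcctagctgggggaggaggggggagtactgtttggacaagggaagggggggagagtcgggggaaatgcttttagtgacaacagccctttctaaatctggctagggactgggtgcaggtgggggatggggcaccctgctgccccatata

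Short motifs for 6 factors or elements were searched on both strands of these windows. The PU.1 letters AGGAAGT, read by a factor that drives myeloid genes, begin at position -60 in Chil3 on the opposite strand and at position 2 in Cd300lf, counted from the transcription start. They occur in 9.35% of the 32851 RefSeq promoters of the same length. An NF-kB match begins at -48 in Jaml (8.46% of promoters), and the muscle M-CAT letters CATTCC lie at -201 on the opposite strand in Myh7 (14.7%). TATAAA, the core promoter letters, begin at -3 in Chil3, at -100 in Jaml and at -28 on the opposite strand in Cd300lf (13.6%). The AP-1 letters TGANTCA (7.81%) and the C/EBP letters TTGCNNAA (10.8%) were not in these 4 windows, and no pair of matches overlapped. A second Myh7 window, from a start nearby, holds none of the letters searched. The RefSeq table held 12 windows for 8 of the 14 genes, and a match describes letters, not a bound site.

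Pgf and Lipg encode secreted proteins that act at vessels. Pgf encodes placental growth factor, a ligand of the VEGF family that attracts myeloid cells and acts on vessels. It read 9.59 and 9.56 in WT MI and 8.27 and 8.51 in KO MI, with sham arrays between 5.21 and 5.65. The KO MI arrays lay below both WT MI arrays and well above sham, and the level was 2.28-fold lower (log2 difference -1.19, SE 0.15, adjusted p = 0.0346). Lipg encodes endothelial lipase, which acts on lipoprotein phospholipids. It read 5.37 and 5.49 in WT MI and 4.11 and 4.26 in KO MI, with sham arrays between 3.64 and 3.91, so that KO MI stood close to sham (2.37-fold lower, log2 difference -1.24, SE 0.13, adjusted p = 0.0238). Pgf passed in 0 and Lipg in 2 of the 8 fits that left out an array.

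Snora31, a small nucleolar RNA of the class that guides pseudouridine formation in ribosomal RNA, was also lower; it fell outside the rule for naming genes and was named after its values were seen. It read 8.05 and 8.16 in WT MI and 7.07 and 7.11 in KO MI, beside 5.48 and 5.52 in WT sham and 6.01 and 6.08 in KO sham. The order of the KO and WT arrays was opposite in sham and in MI. After MI it was 2.02-fold lower in KO (log2 difference -1.01, SE 0.12, adjusted p = 0.0248), and it passed in 2 of the 8 fits that left out an array.

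Among the higher genes, Myh7 encodes the slow beta myosin heavy chain, a gene of the fetal heart that stress brings back in adult muscle. It read 9.64 and 9.96 in WT MI and 11.20 and 12.08 in KO MI, beside 9.06 and 9.24 in WT sham and 10.84 and 11.04 in KO sham. Every KO array, sham or MI, lay above every WT array. The difference after MI was 3.58-fold (log2 difference 1.84, SE 0.25, adjusted p = 0.0447, range over the alternatives 0.0134 to 0.319), and the same difference in sham hearts, 1.79 (SE 0.25), missed the threshold at an adjusted p of 0.076. Mtss1, which bends membranes and binds actin, read 6.94 and 6.83 in WT MI and 7.89 and 7.84 in KO MI, beside 7.71 and 7.81 in WT sham and 8.35 in both KO sham arrays. It was 1.98-fold higher after MI (log2 difference 0.98, SE 0.12, adjusted p = 0.026), and its difference in sham was 0.59 (adjusted p = 0.302).

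Pfkfb2 encodes the heart form of the enzyme that makes the activator of phosphofructokinase. It read 7.14 and 7.02 in WT MI and 8.08 and 8.37 in KO MI, with sham arrays between 9.39 and 10.03. The KO MI arrays lay between WT MI and sham, 2.22-fold above WT MI (log2 difference 1.15, SE 0.16, adjusted p = 0.0447). Aqp8, a water and peroxide channel, read 4.20 and 4.28 in WT MI and 5.55 and 5.99 in KO MI, with sham arrays between 5.38 and 5.69. Here the KO MI arrays stood at or above the sham levels while WT MI lay below them, a difference of 2.89-fold (log2 difference 1.53, SE 0.16, adjusted p = 0.0238).

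Ephx1 and Rapsn showed the same arrangement. Ephx1, a microsomal hydrolase that detoxifies epoxides, read 7.02 and 6.73 in WT MI and 7.93 and 7.89 in KO MI, with sham arrays between 7.77 and 7.95 (2.04-fold higher, log2 difference 1.03, SE 0.13, adjusted p = 0.0369). Rapsn, which clusters acetylcholine receptors at the nerve-muscle junction, read 5.42 and 5.46 in WT MI and 6.45 and 6.51 in KO MI, with sham arrays between 6.44 and 6.72 (2.06-fold higher, log2 difference 1.04, SE 0.12, adjusted p = 0.0248). In both genes KO MI lay at the sham level and WT MI about 1 log2 unit under it. Aqp8 passed in 3, Rapsn and Mtss1 in 2, Myh7 and Ephx1 in 1 and Pfkfb2 in 0 of the 8 fits that left out an array.

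Set beside their own sham groups, these genes differed in how far they moved with infarction. The WT response shares the WT MI arrays with the comparison that chose the genes, so these values are a description. Chil3 was 5.71 above sham in WT and 4.09 in KO, Pgf 4.20 and 2.82, Cd300lf 3.71 and 2.29, and Sla 3.22 and 1.80. Jaml was 2.37 and 1.27 above sham and Lipg 1.55 and 0.43. On the other side, Pfkfb2 was at -2.43 in WT and -1.68 in KO, Ephx1 at -1.05 and 0.11, Rapsn at -1.01 and -0.15, and Aqp8 at -1.18 and 0.22, all as log2 differences of MI from sham. Myh7 stood apart, at 0.65 in WT and 0.70 in KO.

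**Figure D2:**
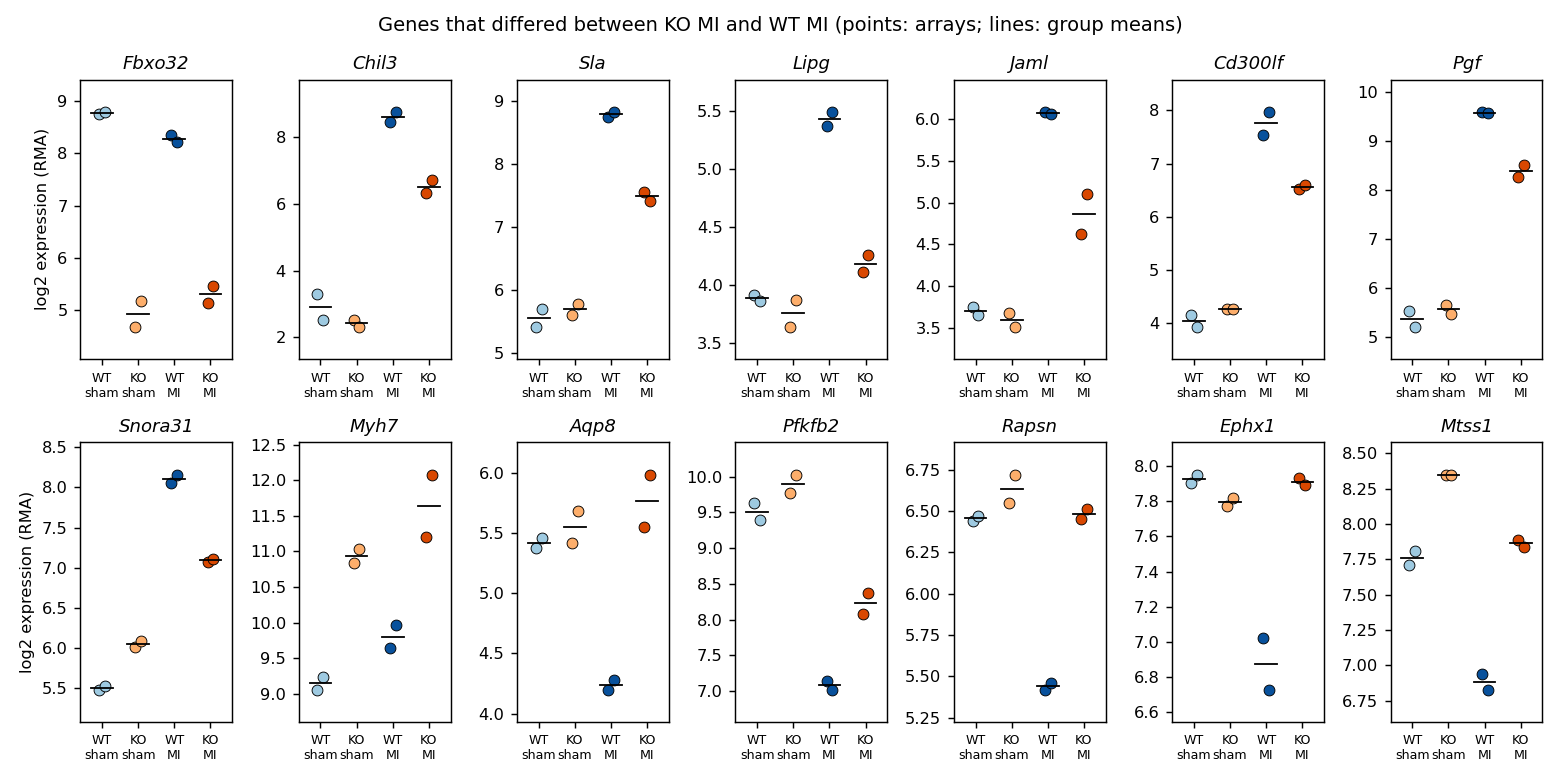
Log2 RMA level (vertical axis, own scale per panel) of the 14 genes that differed between KO MI and WT MI in each of the 8 arrays, by group, with lines at the group means (n = 2). For Chil3, Sla, Jaml, Cd300lf and Pgf the KO MI points lie between the sham points and the WT MI points, and for Aqp8, Rapsn and Ephx1 they lie at the sham level.

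Neutrophil markers were lower in KO MI as a list, though 0 of the 24 measured members (of 28 listed) passed the threshold. Their median difference was -0.70 on the log2 scale, against 0.00 over all genes tested, and it lay between -0.83 and -0.48 with any array left out. The arrays did not overlap, with KO lower, in 19 of the 24, and in 0 with KO higher; over all genes KO MI was lower without overlap in 20.2% and higher in 24.2%. Among the 13292 genes with the highest mean levels these shares were 17.3% and 32.2%. The counts without overlap given for every other list are to be read beside these shares. With cyclic loess the list had 17 lower and 2 higher without overlap. Averaged over the 24 markers and relative to the WT sham mean, the arrays stood at 2.89 and 3.32 in WT MI, 2.31 and 2.49 in KO MI and between -0.01 and 0.08 in sham. In such tissue, fewer cells of a type and less RNA per cell cannot be told apart. Whether the neutrophil marker level takes part in the lower Chil3, Sla, Jaml and Cd300lf was not tested.

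Single neutrophil genes spanned a wide range. Retnlg, a resistin-like secreted peptide, read 8.24 and 9.91 in WT MI and 6.49 and 6.54 in KO MI (log2 difference -2.56, SE 0.43, adjusted p = 0.0783). Cd177, a surface protein that aids neutrophil migration, read 6.76 and 7.67 in WT MI and 5.65 and 5.94 in KO MI (-1.42, SE 0.25, adjusted p = 0.0936). Cxcr2, the receptor for neutrophil-drawing chemokines, read 9.43 and 9.95 in WT MI and 7.76 and 8.91 in KO MI (-1.36, SE 0.35, adjusted p = 0.207). In Retnlg and Cd177 the WT MI arrays lay far apart, with replicate 2 the higher. Without WT MI replicate 2 their differences were -1.73 (adjusted p = 0.163) and -0.96 (adjusted p = 0.275), and without WT MI replicate 1 they were -3.40 (adjusted p = 0.0129) and -1.87 (adjusted p = 0.0244), which pass the threshold. Over all alternatives the adjusted p ran from 0.0129 to 0.492 for Retnlg and from 0.0244 to 0.57 for Cd177. S100a8 and S100a9, the subunits of calprotectin, had differences of -1.08 (SE 0.32, adjusted p = 0.256) and -0.95 (SE 0.29, adjusted p = 0.268). Il1r2, the decoy receptor of interleukin 1, had a difference of -1.26 (SE 0.25, adjusted p = 0.134) and the gelatinase Mmp9 one of -0.87 (SE 0.19, adjusted p = 0.161). Granule genes that precursors make in the bone marrow, Elane, Mpo, Prtn3 and Ctsg, stayed near their sham levels in the 4 MI arrays.

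**Figure D3:**
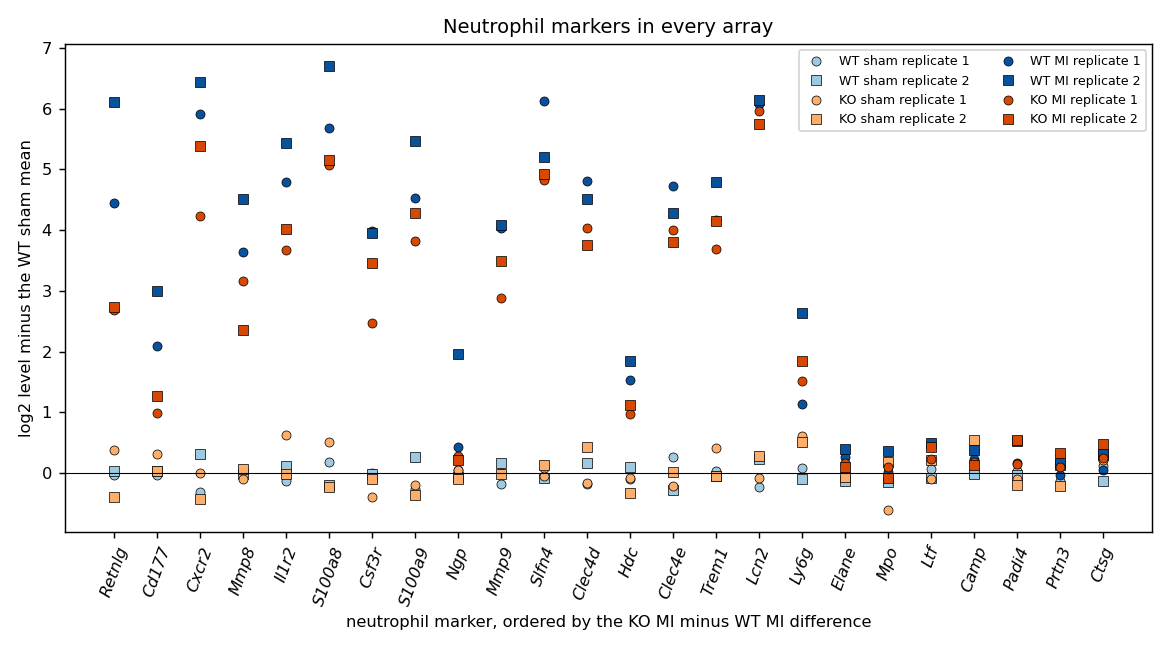
Log2 level minus the WT sham mean (vertical axis) for the 24 measured neutrophil markers, ordered from the lowest KO MI minus WT MI difference (Retnlg) to the highest, with 1 point per array. Red KO MI points lie below blue WT MI points in 19 of the 24, and Elane, Mpo, Camp, Prtn3 and Ctsg lie near 0 in every array.

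Monocyte and macrophage genes did not move as a block. Of 23 markers of recruited monocytes and macrophages, 1 passed (Chil3, lower), the median was -0.03, and 9 were lower and 3 higher without overlap. The median was -0.33 without WT MI replicate 2 and 0.25 without WT MI replicate 1, so it had no settled sign. The integrin subunit Itgam read 9.87 in both WT MI arrays and 9.03 and 9.18 in KO MI (log2 difference -0.76, SE 0.18, adjusted p = 0.184). The immunoglobulin receptor Fcgr3 read 9.43 and 8.99 against 8.17 and 8.38 (-0.94, SE 0.23, adjusted p = 0.189). Of the 23 markers 14 lay below 0 and 9 above, the latter with Plac8 (1.21, arrays overlapping) and Gpnmb (0.83). Ccr2 and Csf1r lay at -0.01 and -0.03. Resident macrophage markers had a median of 0.22, with 0 of 14 past the threshold and 8 higher and 4 lower without overlap, and the median was 0.08 without WT MI replicate 2. Among them the fractalkine receptor Cx3cr1 read 5.83 and 5.50 in WT MI and 6.36 and 6.49 in KO MI (0.76, SE 0.16, adjusted p = 0.155). The growth factor Igf1 read 6.23 and 5.90 against 6.68 and 6.58 (0.56, SE 0.14, adjusted p = 0.185). Of the 14 markers 9 lay above 0 and 5 below, with F13a1 lowest (-0.51, SE 0.16, adjusted p = 0.282) and Cd163 at -0.38. With cyclic loess the median of the list was 0.13.

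MHC class II genes, which present antigen, had a median of 0.37 over 6 members with 0 called, and 3 of them were higher without overlap. H2-Ab1 read 8.75 and 7.79 in WT MI and 8.82 in the lower of the KO MI arrays, so that WT MI replicate 2 was the low array. The median of this list was 0.07 without WT MI replicate 2 and 0.63 without WT MI replicate 1. Lymphocyte markers (16 measured) had a median of -0.14 (-0.23 to -0.08 with an array left out), and -0.07 with cyclic loess. Of them 0 were called, and 7 were lower and 1 higher without overlap. Cd4, the helper T cell coreceptor, was among the lower at -0.41 (SE 0.15, adjusted p = 0.333). The higher one was Cd28 at 0.44 (SE 0.17, adjusted p = 0.357).

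Inflammatory transcripts downstream of NF-kB lay lower, without a called member. The inflammatory lists share members with each other and with the neutrophil list, so they are not independent. Mmp9 is in the neutrophil, NF-kB target and metalloproteinase lists, Il1r2 in the neutrophil and interleukin 1 lists, and Cxcl1 in the NF-kB target and CXC lists. Of 18 NF-kB target genes 9 were lower and 1 higher without overlap, and the median was -0.20 (-0.07 without KO MI replicate 1 and -0.27 without KO MI replicate 2). Ptgs2, the inducible cyclooxygenase, read 9.89 and 9.84 in WT MI and 9.07 and 9.42 in KO MI (log2 difference -0.62, SE 0.15, adjusted p = 0.184). Icam1, the endothelial ligand of leukocyte integrins, read 8.55 and 8.56 in WT MI and at most 8.19 in KO MI (-0.46, SE 0.14, adjusted p = 0.275). In these genes the WT MI arrays agreed closely and the KO MI arrays lay below them. The subunits and inhibitors of NF-kB itself had a median of 0.02 over 16 members, 4 higher and 4 lower without overlap, and that median changed sign in 5 of 19 alternatives. Tnfaip3, the feedback inhibitor A20, had a difference of -0.50 (SE 0.14, adjusted p = 0.244), and Nfkbia, which holds NF-kB in the cytoplasm, one of -0.47 (SE 0.17, adjusted p = 0.336).

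Among ligands and receptors, CXC chemokines and their receptors had a median of -0.25 (-0.33 to -0.16 with an array left out), with 8 of 18 lower and 2 higher without overlap. The neutrophil chemokines Cxcl3 and Cxcl2 read 8.54 and 9.12, and 9.07 and 9.91, in WT MI and 7.74 and 7.88, and 8.37 and 8.41, in KO MI. Their differences were -1.02 (SE 0.24, adjusted p = 0.182) and -1.10 (SE 0.37, adjusted p = 0.301). For CC chemokines and receptors the median was -0.10 (-0.19 to -0.09) over 17 members, with 6 lower and 1 higher without overlap. Ccr1, a receptor of neutrophils and monocytes, read 7.71 and 8.11 in WT MI and 6.55 and 7.09 in KO MI (-1.08, SE 0.22, adjusted p = 0.134). The IL-6 and TNF families (18 measured) had a median of -0.13 (-0.21 to -0.03), with 7 lower and 2 higher without overlap, and Il6 itself a difference of -0.43 (SE 0.19, adjusted p = 0.432). In the interleukin 1 and inflammasome list (13 measured, median -0.14, range -0.22 to -0.09, 5 lower and 1 higher without overlap) the sensor Nlrp3 read 6.36 and 6.65 in WT MI and 5.60 and 5.63 in KO MI (-0.89, SE 0.15, adjusted p = 0.0789).

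Immediate early genes, the transcription factors and feedback genes that injury switches on first, had a median of -0.34 over 23 members (between -0.41 and -0.21 with an array left out). The arrays did not overlap in 14 with KO lower and in 1 with KO higher, and 0 were called. Fosl1, an AP-1 subunit, read 8.34 and 8.22 in WT MI and 7.20 and 7.63 in KO MI (log2 difference -0.86, SE 0.16, adjusted p = 0.116). Fosl2, its relative, read 9.12 in both WT MI arrays and 8.49 and 8.57 in KO MI (-0.59, SE 0.17, adjusted p = 0.239). Averaged over the list and relative to WT sham, the arrays stood at 1.08 and 1.20 in WT MI, 0.74 and 0.95 in KO MI and between -0.15 and 0.17 in sham, so the 2 genotypes did not overlap after MI.

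Proteases that digest matrix lay on both sides of 0. Of 15 matrix metalloproteinases 0 were called, 6 were lower and 4 higher in KO without overlap. The median was 0.05, with the other sign in 2 of 19 alternatives. In all, 9 lay above 0 (the highest at 0.70) and 6 below, and the metalloproteinases given next are among the lower. The neutrophil collagenase Mmp8 read 6.51 and 7.40 in WT MI and 6.05 and 5.23 in KO MI (log2 difference -1.32, SE 0.30, adjusted p = 0.168). Mmp25, a membrane-bound enzyme of neutrophils, read 5.47 and 5.71 against 4.85 and 4.96 (-0.68, SE 0.14, adjusted p = 0.149), and Mmp19 7.48 and 7.49 against 6.77 and 6.92 (-0.64, SE 0.12, adjusted p = 0.119). In the list of the plasminogen system with ADAM and ADAMTS enzymes (15 measured, median -0.22, -0.27 to -0.08 with an array left out, 7 lower and 4 higher without overlap), the urokinase receptor Plaur read 8.84 and 8.99 in WT MI and 8.13 and 8.14 in KO MI. Its difference was -0.78 (SE 0.12, adjusted p = 0.0663), close to the threshold. Adamts5, an aggrecanase, lay the other way, at 6.28 and 6.67 in WT MI and 7.35 and 7.21 in KO MI (0.80, SE 0.16, adjusted p = 0.134).

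Inhibitors of these proteases had a median of 0.20 (0.08 to 0.20 with an array left out) over 10 members, 3 higher and 3 lower without overlap. Timp1, the main inducible metalloproteinase inhibitor, read 11.38 and 10.90 in WT MI and 11.88 and 11.61 in KO MI (log2 difference 0.61, SE 0.23, adjusted p = 0.358). Slpi, an inhibitor of neutrophil elastase, lay lower, at 6.74 and 6.47 in WT MI and 5.54 and 6.24 in KO MI (-0.71, SE 0.21, adjusted p = 0.245).

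Collagen and fibroblast genes lay higher in KO MI, again with 0 called. Of 15 fibroblast markers 11 were higher and 0 lower without overlap, with a median of 0.22 (0.17 without WT MI replicate 2 and 0.40 without WT MI replicate 1). The collagen and crosslinking list had a median of 0.20 (0.13 without WT MI replicate 2) over 21 members, with 11 higher and 2 lower without overlap. Col3a1, a fibrillar collagen of the early scar, read 7.75 and 7.55 in WT MI and 8.57 and 8.39 in KO MI (log2 difference 0.83, SE 0.14, adjusted p = 0.0783). Col1a1 and Col1a2, the chains of type I collagen, had differences of 0.73 (SE 0.15, adjusted p = 0.152) and 0.72 (SE 0.17, adjusted p = 0.18). Lum, a collagen-binding proteoglycan, read 7.55 and 7.67 against 8.31 and 8.22 (0.66, SE 0.13, adjusted p = 0.134). Averaged over the fibroblast list and relative to WT sham, WT MI stood at -0.34 and -0.55 and KO MI at -0.11 and -0.12. Collagens and fibroblast markers share members, so the lists are not independent. Matricellular genes had a median of -0.06 (-0.18 to -0.02 with an array left out) over 16 members, with 6 lower and 1 higher without overlap, among them the thrombospondin Thbs1 (-0.77, SE 0.21, adjusted p = 0.221).

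**Figure D4:**
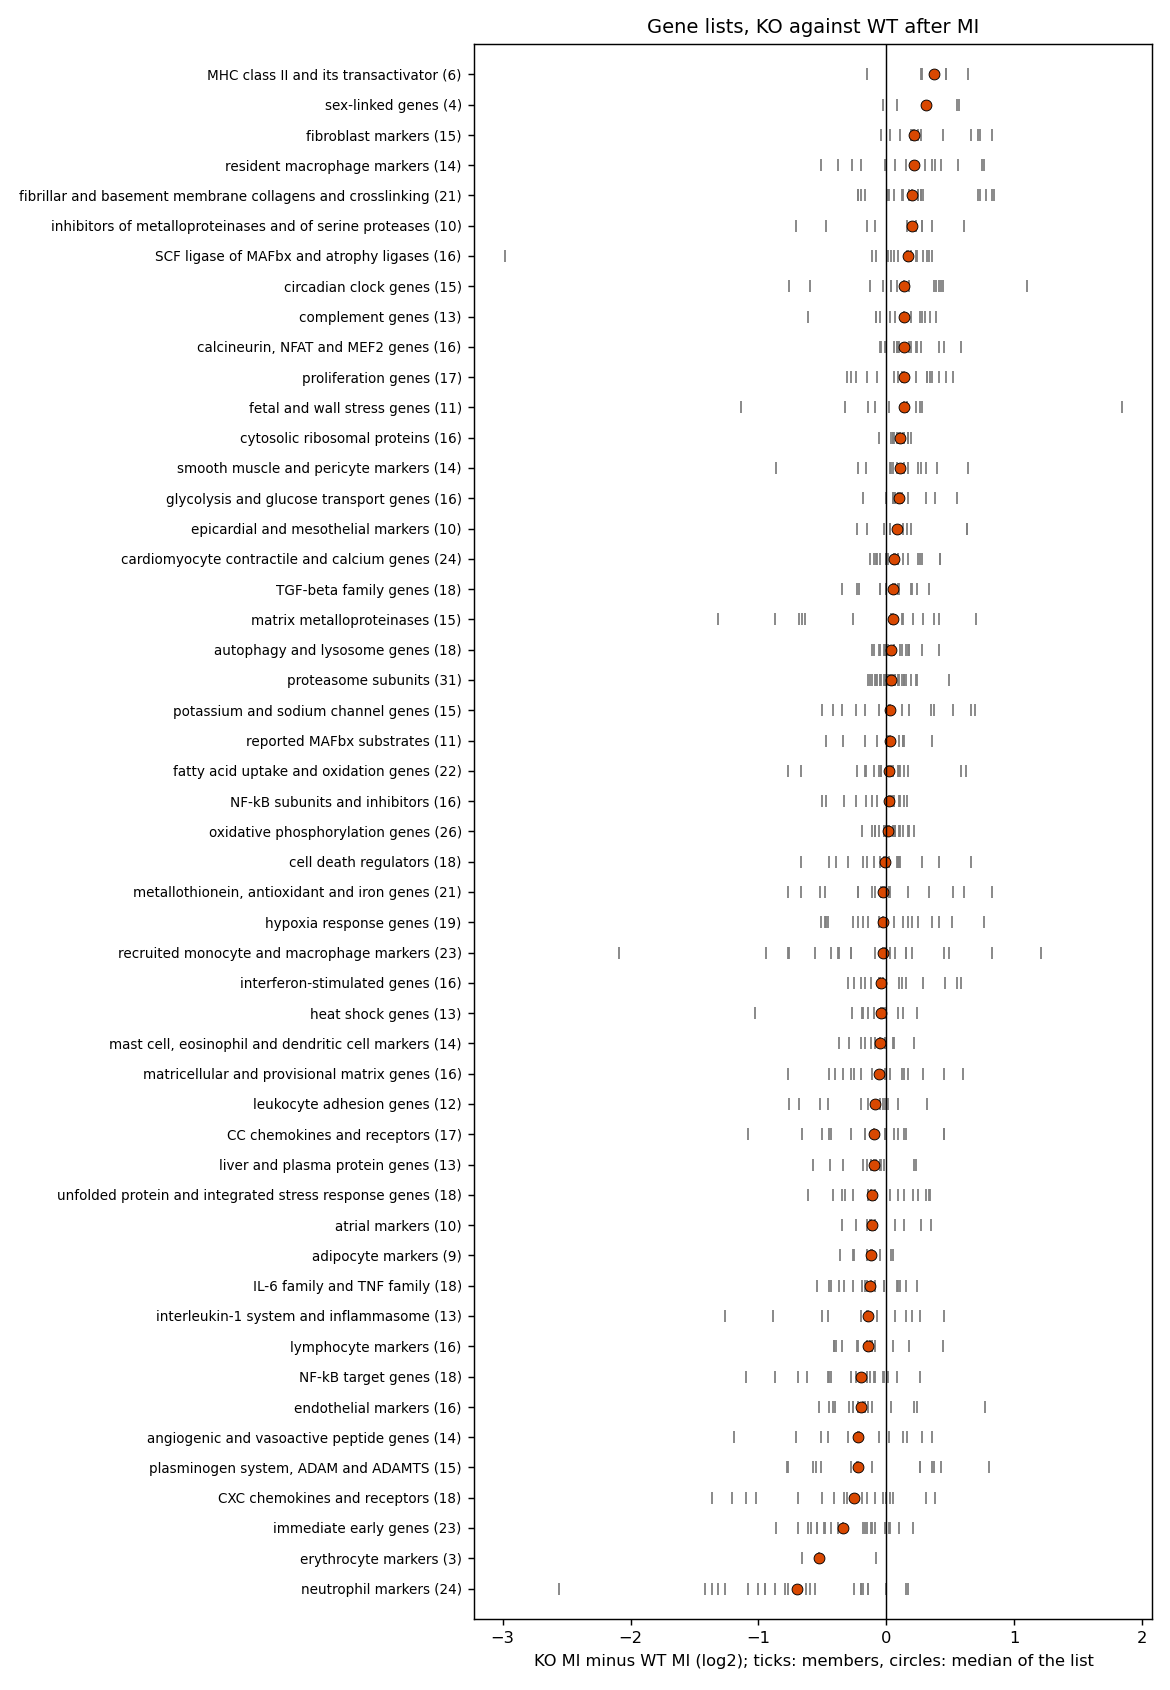
Difference between KO MI and WT MI (log2, horizontal axis) for the members of 51 gene lists (ticks) with the median of each list (circles) and the number measured in brackets. Neutrophil markers have the lowest median of the 51 lists, at -0.70. The erythrocyte list of 3 members lies at -0.53 and immediate early genes at -0.34. Fibroblast, resident macrophage and MHC class II lists lie above 0.20.

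Endothelial markers had a median of -0.20 over 16 members (between -0.29 and -0.14 with an array left out), with 10 lower and 1 higher without overlap and 0 called. Esam, an adhesion molecule of endothelial junctions, read 9.43 and 9.45 in WT MI and 9.13 and 8.95 in KO MI (log2 difference -0.40, SE 0.12, adjusted p = 0.263). Of the 4 members above 0 the apelin receptor Aplnr lay highest (0.77, SE 0.25, adjusted p = 0.3). Angiogenic and vasoactive genes (14 measured, median -0.22, -0.22 to -0.10 with an array left out) held the called gene Pgf and 5 others that were lower without overlap. In the same list 3 were higher without overlap. Angpt1, the ligand that steadies vessels, read 7.39 and 7.25 in WT MI and 6.70 and 6.53 in KO MI (-0.71, SE 0.14, adjusted p = 0.134), while Vegfa lay higher in KO (0.36, SE 0.14, adjusted p = 0.372). Smooth muscle and pericyte markers had a median of 0.11 (0.11 to 0.20 with an array left out) over 14 members, 4 higher and 1 lower without overlap. Acta2, smooth muscle actin, differed widely between the WT MI arrays (9.96 and 11.19) and read 9.66 and 9.78 in KO MI.

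Heart muscle genes lay close to 0. Of 24 contractile and calcium genes 12 were higher and 3 lower without overlap, with a median of 0.06 and 0 called; with cyclic loess these counts were 8 and 4. The calcium pump regulator Pln read 13.08 and 13.02 in WT MI and 13.46 and 13.47 in KO MI (log2 difference 0.42, SE 0.11, adjusted p = 0.225). Fetal and wall stress genes had a median of 0.14 (-0.02 to 0.15 with an array left out) over 11 members, with the other sign in 2 of 19 alternatives, 1 called (Myh7) and 4 higher and 2 lower without overlap. Acta1, skeletal actin and another fetal gene, lay opposite to Myh7, at 10.48 and 9.91 in WT MI and 8.76 and 9.36 in KO MI (-1.14, SE 0.24, adjusted p = 0.152). The natriuretic peptide gene Nppa, released on stretch, read 12.27 and 12.25 in WT MI and 12.36 and 12.45 in KO MI (0.14, SE 0.25, adjusted p = 0.875).

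Ion channel genes split into 5 higher and 5 lower without overlap out of 15 measured (median 0.03, but -0.07 with cyclic loess). Kcnk3, a background potassium channel, read 8.09 in both WT MI arrays and 8.72 and 8.84 in KO MI (log2 difference 0.69, SE 0.12, adjusted p = 0.0783). Of 22 genes of fatty acid uptake and oxidation 4 were higher and 6 lower without overlap (median 0.02, with the other sign in 4 of 19 alternatives). The regulators Ppargc1a and Ppara were higher, at 0.62 (SE 0.13, adjusted p = 0.135) and 0.58 (SE 0.14, adjusted p = 0.184), and Pdk4, the kinase that turns off pyruvate oxidation, lower at -0.77 (SE 0.25, adjusted p = 0.292). Glycolysis and glucose transport genes had a median of 0.10, with 15 of 16 above 0 and 8 higher and 1 lower without overlap, and oxidative phosphorylation genes one of 0.01 over 26, with the other sign in 3 of 19 alternatives.

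The ligase pathway that MAFbx belongs to showed no other called member. Of 16 measured genes of the SCF ligase and of related atrophy ligases 13 lay above 0, 7 were higher and 2 lower without overlap, and the median was 0.17; with cyclic loess these were 5, 3 and 0.07. Fbxo40, a muscle F-box gene, read 9.79 and 9.55 in WT MI and at least 9.98 in KO MI (log2 difference 0.32, SE 0.14, adjusted p = 0.418). Smurf1, a HECT ligase, read 8.21 and 8.08 against 8.48 and 8.47 (0.33, SE 0.12, adjusted p = 0.349). Transcripts of 11 reported MAFbx substrates had a median of 0.03 (the other sign in 2 of 19 alternatives), 1 higher and 3 lower without overlap, and the arrays do not measure their proteins. Calcineurin, NFAT and MEF2 genes had a median of 0.14 over 16, 7 higher and 0 lower without overlap. With cyclic loess 5 of them were higher and 1 lower. Among the 13292 genes with the highest mean levels 32.2% were higher without overlap. Mef2c read 8.18 and 8.25 in WT MI and 8.72 and 8.62 in KO MI (0.45, SE 0.12, adjusted p = 0.228). Proteasome subunits (31 measured) and autophagy genes (18) each had a median of 0.04, and each median turned to -0.03 with cyclic loess.

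The KO effect after MI was set beside that after sham, which uses the other 4 arrays. In sham hearts 6 genes (0.0301%) differed, 5 lower (0.0251%) and 1 higher (0.00502%) in KO, and 1017 (5.1%) did so at an unadjusted p under 0.05. Fbxo32 was the 1 gene called in both conditions. Acta1, Nppa, Cd59a, which shields cells from complement, the secreted factor Angptl7 and the small nucleolar RNA Snord14e were called in sham, and after MI their differences were -1.14, 0.14, -0.34, -0.31 and -0.15, none past the threshold. Across the 19938 genes the differences in both conditions correlated at r = 0.03, where genes are not independent replicates.

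A test of the difference between the 2 KO effects called 0 genes (0%) in the limma fit at an adjusted p under 0.05, with 1637 (8.21%) at an unadjusted p under 0.05; an intensity trend gave 4 and cyclic loess 1. So none of the 14 genes was shown to differ in its KO effect between MI and sham. Snora31 came closest, with a difference of the effects of -1.55 (SE 0.17, adjusted p = 0.0773). Next by p were Grk3, a kinase that turns off G protein-coupled receptors (-1.37, SE 0.18), Cd59a (1.57, SE 0.22), Sla (-1.42, SE 0.20), Nppa (2.45, SE 0.35), Snord14e (-2.84, SE 0.41) and Plaur (-1.18, SE 0.17), each at an adjusted p of 0.161. Grk3 read 6.14 and 6.18 in WT sham, on average 0.86 more in KO sham, 6.54 and 6.38 in WT MI and 6.05 and 5.85 in KO MI. Its KO arrays were the higher pair in sham and the lower pair after MI.

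**Figure D5:**
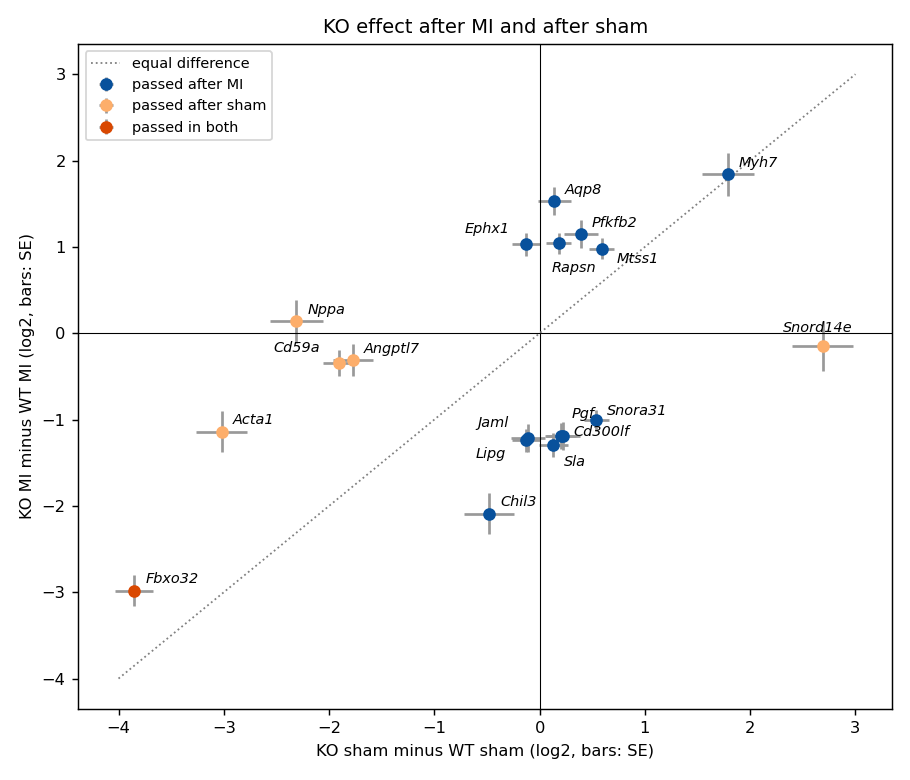
KO minus WT difference after MI (vertical axis) against that after sham (horizontal axis), both log2 with standard errors as bars, for genes called in either condition, with a dotted line of equal differences. Fbxo32 lies low in both, Myh7 lies on the line at 1.79 and 1.84, and Chil3, Sla, Pgf, Lipg, Jaml and Cd300lf lie within 0.5 of 0 in sham and below -1 after MI.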

How the data were processed

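Mouse heart RNA was measured on 8 Affymetrix Mouse Gene ST arrays, 2 per group. The deposited values are log2 levels, made by the authors in Affymetrix Expression Console by RMA, per the submitters' processing notes; the tool versions and genome build used are not given in the sources here. RMA as commonly run makes array distributions alike, which hides a change common to most genes. Of 35556 probes, 21789 were listed with 1 gene, 1621 with several and 12146 are unnamed here; 21698 matched RefSeq (GRCm38.p6) by Entrez ID and 91 did not. For 999 genes with several probes the one with the highest mean was used, with no filter on low values.

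All 8 arrays entered 1 limma 3.58.1 fit (R 4.3.3) with 4 group means, 4 residual and 5.57 prior degrees of freedom, two-sided, with Benjamini-Hochberg adjustment across 19938 genes. An exact two-sided permutation test of 2 against 2 cannot go below 0.333, so adjusted p values come from limma. Named were Fbxo32, the genes called in sham, and up to 20 called genes in each direction whose arrays did not overlap. Also named were up to 4 members of each of 51 lists by p and 5 neighbours of Fbxo32 on each side. For the difference of effects 5 genes in each direction were named. Predicted, clone and small nucleolar names were counted only, except Snora31 and Snord14e. S100a8, S100a9 and marrow granule genes were also named after values were seen. Plac8, Gpnmb, Ccr2, Csf1r and Cd163 were likewise given outside this rule. Lists are described by counts and medians, with no set test. The comparison, its members and the lists were chosen with earlier results of these data known. Alternatives covered the prior, array weights, low genes, probe choice, cyclic loess, median centring, a fit of the 2 groups alone, a block for the replicate number, a 2-fold minimum, and each array left out (the array left alone is then taken to vary as the other groups do); joint removal of the 2 arrays that stood apart was chosen after seeing the data. Scripts were tested on simulated data. Figures used matplotlib 3.10.9 in Python 3.11.15.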

Additional observations from a re-analysis of the deposited data

How the results depend on the processing

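The count of genes that differed between KO and WT after MI was 14 (6 higher, 8 lower). It was 63 (40 and 23) with an intensity trend, 26 (14 and 12) with array weights, 23 (12 and 11) with genes of the lowest levels removed, 20 (6 and 14) with cyclic loess, 16 with a robust prior, 15 with median centring, 14 with the mean of a gene's probes, 13 with a 2-fold minimum, 2 (0 and 2) with the 2 compared groups alone and 0 with all probes. With the replicate block it was 5 (2 and 3). The same-numbered arrays correlated in their deviations between -0.187 and 0.156, the highest being WT MI with KO MI. With 2 arrays a group this cannot decide whether the numbers pair the arrays. With 1 array left out the count ranged from 2 to 11, higher genes from 0 to 4 and lower genes from 1 to 7. With KO sham replicate 1 and WT MI replicate 2 both left out there were 3 (1 and 2), 1 of them among the 14. In sham the count of 6 became 12 with an intensity trend, 3 with the 2 groups alone, 1 with all probes, 7 with the block, 9 with the joint removal and 3 to 34 with 1 array left out. For the difference of the effects 0 became 4 with an intensity trend, 1 with cyclic loess and 0 to 3 with 1 array left out; the fit of 2 groups alone is not possible for it. No alternative reversed the direction of any of the 14 genes. Of the values of named genes under alternatives 3974 kept their side of the threshold, 132 lost the call and 17 gained it. The 3974 include values of uncalled genes that changed sign, such as Klhl38 (log2 difference -0.29 to 0.25 over the alternatives). List medians moved past the spread between arrays in 89 of their values and stayed within it in 880. Detection above background was not tested, so folds whose lower side is near the 10th percentile of levels (3.032) are uncertain.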

Other observations

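Other gene groups showed small differences between KO and WT after MI, and none of those given here held a called gene. Of 15 circadian clock genes 6 were higher and 4 lower in KO without overlap (median 0.14 on the log2 scale, 0.00 to 0.26 with an array left out), and the clock output gene Dbp read 7.62 and 7.49 in WT MI and 8.62 and 8.68 in KO MI (1.10, SE 0.35, adjusted p = 0.287, which was 0.0463 without either KO sham array and ran from 0.0463 to 0.724 over the alternatives), beside 7.04 and 6.85 in WT sham and 8.22 and 6.78 in KO sham. In sham hearts the median KO difference of the clock list was 0.15. The hours at which hearts were taken are not given in the labels. Of 17 proliferation genes 9 were higher and 3 lower without overlap (median 0.14, 0.08 to 0.24 with an array left out). In sham hearts their median KO difference was 0.22, with 3 of the 17 below 0. After MI the replication licensing genes Mcm2 (0.52, SE 0.13, adjusted p = 0.207) and Mcm5 (0.47, SE 0.15, adjusted p = 0.268) were among the higher. Ribosomal protein genes lay above 0 in 15 of 16, with a median of 0.11 that was 0.04 with cyclic loess.

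Stress genes were mixed. Hspa1a, the inducible heat shock chaperone, read 10.66 and 10.39 in WT MI and 9.36 and 9.64 in KO MI (-1.03, SE 0.25, adjusted p = 0.188), while the 13 heat shock genes together had a median of -0.04. Among 21 metallothionein, antioxidant and iron genes (median -0.03, 4 higher and 8 lower without overlap) the cystine transporter Slc7a11 lay lower (-0.77, SE 0.21, adjusted p = 0.224) and the copper oxidase Cp higher (0.83, SE 0.16, adjusted p = 0.114). Hypoxia response genes had a median of -0.03 over 19, and the carbonic anhydrase Car9 read 4.20 and 4.83 in WT MI and 5.50 and 5.06 in KO MI (0.76, SE 0.21, adjusted p = 0.225). Interferon-stimulated genes had 0 of 16 members without overlap, since the WT MI arrays stood apart from each other: averaged relative to WT sham they lay at 1.17 and 0.30 in WT MI and 0.98 and 0.61 in KO MI. Their median was 0.49 without WT MI replicate 1 and -0.37 without WT MI replicate 2. Complement genes had a median of 0.14 (-0.06 to 0.27 with an array left out) over 13, the unfolded protein response list one of -0.11 over 18, cell death regulators one of -0.01 over 18 and TGF-beta family genes one of 0.05 over 18.

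Markers of other cells and tissues were low or varied within groups. Erythrocyte markers, 3 of 9 with a value here, had a median of -0.53 (-0.13 without WT MI replicate 1 and -0.90 without WT MI replicate 2) and stood at 0.89 and 0.25 in WT MI and 0.09 and 0.19 in KO MI relative to WT sham. Liver and plasma protein genes stood at -1.74 and -1.52 in WT MI and -1.83 and -1.69 in KO MI. On the same scale WT sham stood at -0.43 and 0.43 and KO sham at 0.23 and -1.75, so KO sham replicate 2 was as low as the MI arrays. The Y-linked gene Eif2s3y read 8.42 and 7.11 in WT MI and 7.71 and 7.98 in KO MI, and Xist lay between 2.78 and 3.17 in the 8 arrays. Medians were -0.11 for atrial, 0.08 for epicardial and mesothelial, -0.12 for adipocyte (-0.29 to -0.04 with an array left out), -0.05 for mast cell, eosinophil and dendritic cell markers and -0.09 for leukocyte adhesion genes. Over the 19 alternatives the median changed sign in 3 for the interferon, TGF-beta and atrial lists, in 2 for complement and epicardial lists, and in 1 for hypoxia, heat shock, leukocyte adhesion and mast cell lists.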
